A study of Mus musculus with 8 samples.

Results

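The genes described here are 35 enzymes and carriers of hepatic nitrogen, amino acid and one-carbon metabolism: 8 of the urea cycle and of glutamine handling, 14 of methionine, glycine and folate metabolism, 4 of aromatic amino acid breakdown, 3 of histidine breakdown, and 6 of serine, alanine, aspartate, proline and ornithine metabolism. They were named by symbol, with earlier results of these data known, and each was followed by its brightest probe. Of the 35 genes, 32 had a probe among the 16593 genes of the array and 31 passed the filter on dim probes, out of 9766 genes tested. Gls2, Hgd and Sds had no probe with that symbol. Tat, the aminotransferase that starts tyrosine breakdown, had a probe whose signal stayed within background on all 7 arrays used, so its level was not measured. Of the 31 genes tested, 30 were above the array median on all 7 arrays, and Otc passed the filter through the Fxr+/+ arrays alone.

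RNA came from whole livers of male mice, 10 to 12 weeks old, labelled wild type (Fxr+/+) or lacking the bile acid receptor FXR, gene Nr1h4 (Fxr-/-). Mice of each genotype received either vehicle or GW4064, a synthetic FXR agonist, by gavage for 7 days (30 mg/kg given 2 times daily), so the animals of all 4 groups were gavaged. Each group has 2 one-colour Illumina arrays, each of RNA pooled from 3 or 4 animals, so the spread between arrays is a spread between pools. The strain and the design of the deletion are not given in the sources used here. The deposited column of the second Fxr-/- vehicle array held small whole numbers whose rank correlation with the other arrays reached only 0.0559; it is no signal and was left out, so the Fxr-/- vehicle group is 1 array in everything that follows and its spread is assumed to equal that of the other groups. Nr1h4 itself gave signals of 3327.7 to 4411.4 on the 4 Fxr+/+ arrays and 1851.9 to 3271.6 on the 3 Fxr-/- arrays; the difference passed the test (log2 difference -0.58, adjusted p 0.0286), but the transcript was not lost, and whether its probe lies in the deleted part is not known here, so the genotype is taken as labelled.

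The urea cycle turns ammonia released from amino acids into urea, beginning in the mitochondria and ending in the cytosol, and liver cells near the portal vein carry most of it. One-carbon metabolism moves single carbon units from serine and glycine onto folate and, through methionine, into S-adenosylmethionine, the methyl donor of most methylation reactions. The remaining genes break down aromatic amino acids, histidine and proline, or pass amino groups between amino acids and keto acids. FXR is a nuclear receptor best known for holding bile acid synthesis in check.

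Signals below are the authors' background-subtracted, quantile-normalised intensities. Differences are on the scale of log2(signal + 16), which understates the change of dim genes, and a gene was called when its adjusted p in limma's moderated test over all 9766 genes was under 0.05. In bulk liver, fewer cells of a type and less RNA per cell cannot be told apart. Several marker lists moved with the genotype label. The summed signal of 9 periportal markers on the array was 37322.1 to 42755.3 in Fxr+/+ and 29355.7 to 31860.9 in Fxr-/-, with 4 of 9 lower and 1 higher. Cyp2f2 carried that gap in the sum, at 13689.4 to 14564.6 and 1116.3 to 1818.2. Without it the other 8 summed to 23632.7 to 28190.7 and 28046.2 to 30042.7, higher in Fxr-/- apart from a slight overlap. G6pc and Fbp1 were the brightest of these 8 and weigh most in that sum. By gene, 6 of the 9 had a log2 difference below 0 and 3 above, with a median of -0.44. The 8 hepatocyte markers on the array summed to 138770 to 150904 in Fxr+/+ and 84020.7 to 127828 in Fxr-/- (Serpina1a and Hnf4a lower, Fgb higher), and to 110254 to 119110 and 75203.1 to 103334 without Apoa2. Fgb was within background on all arrays and passed the filter through 2 Fxr-/- arrays alone, so that filter favours a higher call. The 13 pericentral markers on the array overlapped, at 73437.5 to 80563.8 and 64564 to 79289, with 2 of 12 tested lower, as did endothelial markers (1 of 11 lower) and stellate cell markers (2 of 10 lower). Without Gstm1 the pericentral sums were 51531.3 to 63575.7 and 31035.4 to 52248.6, lower in Fxr-/- apart from a slight overlap. Lymphocyte markers summed to 535 to 972.9 in Fxr+/+ and 294.8 to 370.1 in Fxr-/-, with Cd3e, Cd3d and Cd3g lower out of 7 tested and Cd4, Cd8a, Cd79a, Ms4a1 and Ptprc within background on all arrays. Macrophage markers summed to 5043.6 to 8864.4 and 3456.1 to 5892.4 (2 of 8 lower), red blood cell markers to 16742.9 to 28463 and 11938.2 to 18279.5 (2 of 4 lower), and pancreatic acinar markers to 617.7 to 730.7 and 707.6 to 1351.9 (1 of 3 higher). Without Hba-a1 the red blood cell sums did not overlap, at 1182.8 to 2534.7 and 249.4 to 351.7. Nor did the acinar sums without Cela1, at 68.8 to 133.5 and 136.7 to 275.2, with 7 of the 10 acinar markers on the array within background. Bile duct markers summed to 75.4 to 125.4 and 128.3 to 182.7, with 0 of 2 tested called and Krt19 and Cftr within background. Without Sox9 the bile duct sums overlapped, at 33.3 to 61.2 and 33.1 to 55. Over all genes tested, 12.6% were called lower and 9.73% higher in Fxr-/-. The part of these marker lists in the results below was not tested.

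The comparison of genotypes asks which of these genes differ between the genotype labels. Averaged over the 2 treatments with equal weight, 12 of the 31 genes tested (38.7%) were lower in Fxr-/- livers and 0 were higher; over all genes tested, 12.6% were lower and 9.73% higher. The 12 lower genes were Otc and Slc25a15 of the urea cycle, Shmt2, Gldc, Gnmt, Ahcy and Sardh of methionine, glycine and folate metabolism, Fah of tyrosine breakdown, Uroc1 and Ftcd of histidine breakdown, and Got1 and Prodh. For Otc, let in by the Fxr+/+ arrays alone, the filter favours a lower call. The median log2 difference over the 31 genes was -0.33, with 23 below 0 and 8 above, against a median of 0.06 over all genes, of which 45% were below 0 and where the 5th and 95th percentiles were -1.23 and 0.81. In 11 of the 12 genes every Fxr-/- array lay below every Fxr+/+ array. A further 3 genes that were not called lay wholly lower in Fxr-/- (Shmt1, Mthfd1 and Hpd) and 3 wholly higher (Cps1, Cbs and Dmgdh). In all, 14 genes lay wholly lower and 3 wholly higher (54.8% of the 31), against 16.1% and 19.2% of all genes (35.2% together). The calls of Otc, Slc25a15, Shmt2, Gldc, Gnmt, Ahcy, Sardh and Uroc1 held with any 1 replicated array left out, and the other 4 calls are qualified where they are described.

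**Figure D1:**
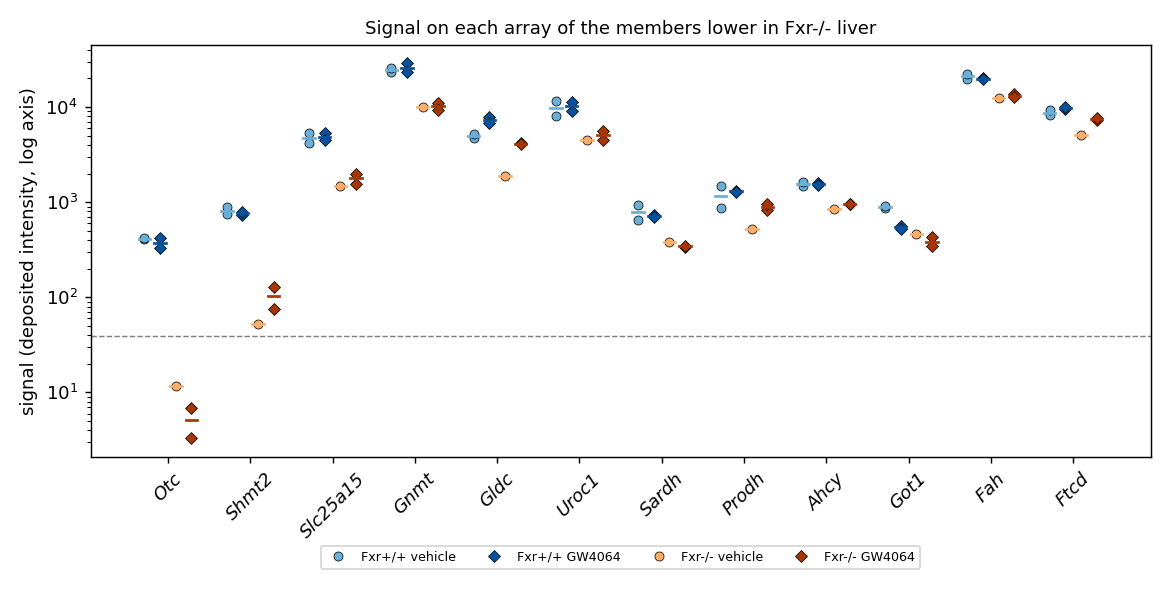
Signal (log axis) of the 12 genes called lower in Fxr-/- averaged over treatments, with each point 1 array, a bar at each group's mean, the groups coloured by genotype label and treatment, and a dashed line at the background range of 39.5. Otc and Shmt2 show the widest gaps, and in Prodh 1 Fxr-/- array lies above 1 Fxr+/+ array.

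Promoter sequences are shown for the 3 lower genes of the methyl cycle that carry the hexamer AGGTCA, the core of many nuclear receptor sites, and for the 2 genes with the largest falls, which do not. They run from 250 bases before to 50 bases after the annotated start (RefSeq, GRCm38.p6), 5′ to 3′ on the gene's strand, with the hexamer or its reverse complement TGACCT in capitals. The windows lie at chr17:46729116-46729415, minus strand (Gnmt), chr2:27247254-27247553, minus strand (Sardh), chr2:155074448-155074747, minus strand (Ahcy), chr10:127522395-127522694, minus strand (Shmt2) and chrX:10252055-10252354, plus strand (Otc).
Gnmt: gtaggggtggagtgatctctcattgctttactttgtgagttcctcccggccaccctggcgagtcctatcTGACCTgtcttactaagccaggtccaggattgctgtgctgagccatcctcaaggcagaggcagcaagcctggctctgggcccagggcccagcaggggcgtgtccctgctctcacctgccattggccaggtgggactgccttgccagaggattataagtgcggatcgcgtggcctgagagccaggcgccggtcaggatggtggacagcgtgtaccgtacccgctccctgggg
Sardh: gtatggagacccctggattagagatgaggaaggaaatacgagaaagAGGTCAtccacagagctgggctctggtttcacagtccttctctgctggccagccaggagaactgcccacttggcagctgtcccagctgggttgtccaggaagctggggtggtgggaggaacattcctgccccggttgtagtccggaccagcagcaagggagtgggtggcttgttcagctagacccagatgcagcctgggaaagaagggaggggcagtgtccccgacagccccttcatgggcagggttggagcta
Ahcy: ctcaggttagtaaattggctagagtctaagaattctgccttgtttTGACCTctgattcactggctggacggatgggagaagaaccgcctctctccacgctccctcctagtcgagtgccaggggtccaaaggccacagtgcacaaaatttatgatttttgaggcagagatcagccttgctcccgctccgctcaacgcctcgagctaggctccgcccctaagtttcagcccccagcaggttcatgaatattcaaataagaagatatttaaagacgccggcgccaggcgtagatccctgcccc
Shmt2: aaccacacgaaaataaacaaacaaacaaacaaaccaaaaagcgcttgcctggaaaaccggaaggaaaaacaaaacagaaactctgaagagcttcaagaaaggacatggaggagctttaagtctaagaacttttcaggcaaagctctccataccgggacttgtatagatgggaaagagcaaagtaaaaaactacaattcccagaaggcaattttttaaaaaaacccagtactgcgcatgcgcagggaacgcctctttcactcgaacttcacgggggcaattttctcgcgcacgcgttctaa
Otc: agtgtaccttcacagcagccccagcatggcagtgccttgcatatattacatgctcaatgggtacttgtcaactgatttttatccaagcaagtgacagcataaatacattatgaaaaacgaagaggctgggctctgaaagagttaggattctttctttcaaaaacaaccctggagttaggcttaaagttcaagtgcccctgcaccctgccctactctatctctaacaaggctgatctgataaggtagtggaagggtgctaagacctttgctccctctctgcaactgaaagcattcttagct
The hexamer, searched on both strands, was in 10 of the 28 promoters found for 27 of the 35 genes, against 16.3% of the 32851 promoters searched, of the same length. Promoters of 1 chromosome, which holds none of the 28, were left out of the 32851, here called all promoters. It was in 5 of 13 promoters of the lower genes (Gnmt, Sardh, Ahcy, Got1 and Uroc1) and in 4 of 13 promoters of genes tested but not called, so the letters did not separate the 2 sets. The inverted repeat of this hexamer with 1 base between its arms, the arrangement best known for FXR, contains the hexamer; it was in none of the 28 windows and in 3 of all 32851. CAAAGTCCA, a form of the HNF4A site, and TGATGNAAT, a form of the ATF4 site, were also in none of the 28, against 0.475% and 0.965% of all promoters. CCAAT was in 15 of the 28 against 37.4% of all. These matches describe letters in a short window. The base composition was alike, with a median GC content of 59% in the promoters of lower genes and 60.7% in those not called. The windows of Bhmt2 and Dmgdh, neighbours that are read in opposite directions, share 233 bases, and neither gene was called.

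In the urea cycle list 2 of 7 genes tested were lower (28.6%, against 12.6% of all genes), 0 were higher and 5 were not called. The 2 are an enzyme and a carrier that handle ornithine in the mitochondrion. Oat, a mitochondrial enzyme of ornithine placed in another list, was not called. Otc, ornithine transcarbamylase, joins ornithine and carbamoyl phosphate to form citrulline. Its signals were 406.3 and 422.7 under vehicle and 418.7 and 332.1 under GW4064 in Fxr+/+, and 11.7 under vehicle and 6.9 and 3.3 under GW4064 in Fxr-/-. All 3 Fxr-/- arrays were within the background range of signals under 39.5, so the fall is a bound: Otc was at least 9.95-fold lower in Fxr-/- (log2 difference -4.08, SE 0.163, adjusted p 1.83e-05). Otc passed the filter through the Fxr+/+ arrays alone, so that filter favours a lower call. Over the alternative settings its log2 difference ran from -5.52 to -2.19. A second Otc probe read -20.9 to -9.6 on every array and adds no measurement. Slc25a15, the carrier that brings ornithine into the mitochondrion, read 5269.7 and 4147 under vehicle and 5295.3 and 4448.7 under GW4064 in Fxr+/+ arrays. In Fxr-/- it read 1462.8 under vehicle and 1997.2 and 1550.9 under GW4064, which is 2.95-fold lower (log2 difference -1.56, SE 0.18, adjusted p 0.00104). The genotypes did not overlap, and its second probe, at 451.3 to 825.3 and 154.3 to 293.6, showed the same direction with a log2 difference of -1.77.

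The other enzymes of the cycle were not called. Cps1, which makes carbamoyl phosphate from ammonia, read 15721.2 and 11500.1 under vehicle and 16053.1 and 13190.8 under GW4064 in Fxr+/+ livers and 21757.8 under vehicle and 22291.4 and 16798.9 under GW4064 in Fxr-/- livers. Every Fxr-/- array was above every Fxr+/+ array, by a log2 difference of 0.55 (95% interval 0.10 to 1.01), but the adjusted p was 0.0829. For Ass1, which condenses citrulline with aspartate, the values were 11093.9 and 15987 under vehicle and 15519.2 and 14884.7 under GW4064 in Fxr+/+ and 9843.5 under vehicle and 15781.5 and 15781.5 under GW4064 in Fxr-/-, with a log2 difference of -0.19 (95% interval -0.60 to 0.22). Asl, which splits argininosuccinate into arginine and fumarate, varied widely between arrays of 1 group. It read 2534.3 and 1334.9 under vehicle and 3402.7 and 2274.4 under GW4064 in Fxr+/+ and 2176.8 under vehicle and 2212.2 and 989.5 under GW4064 in Fxr-/-, and its interval for the genotype difference ran from -1.15 to 0.49. Arg1, which releases urea from arginine, stayed between 23515.6 and 24870.6 in Fxr+/+ and between 24680.3 and 27446.4 in Fxr-/- (95% interval -0.22 to 0.44). Nags, which makes the activator of Cps1, read 276.1 and 146.5 under vehicle and 190.9 and 254.8 under GW4064 in Fxr+/+ and 198.4 under vehicle and 191.8 and 90.2 under GW4064 in Fxr-/-. Its genotypes overlapped (log2 difference -0.35, adjusted p 0.451). Arg1 is close to the brightest signals of the array, whose maximum was 39228.8.

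In methionine, glycine and folate metabolism 5 of 14 genes were lower (35.7%, against 12.6% of all genes). In that list 0 were higher and 9 were not called, with a median log2 difference of -0.20. Shmt2, the mitochondrial hydroxymethyltransferase that takes a carbon unit from serine, had the largest fall among them. Its signals were 752.5 and 879.1 under vehicle and 739.2 and 783.6 under GW4064 in Fxr+/+ and 52.9 under vehicle and 129.1 and 75.2 under GW4064 in Fxr-/-. The Fxr-/- arrays were 9.02-fold lower (log2 difference -3.17, SE 0.201, adjusted p 8.51e-05), and a second, dimmer probe gave a log2 difference of -1.76. Its cytosolic counterpart Shmt1 read 714.2 and 657.2 under vehicle and 795.7 and 686.6 under GW4064 in Fxr+/+ and 605.4 under vehicle and 555.4 and 487.9 under GW4064 in Fxr-/-. The genotypes of Shmt1 did not overlap, but the log2 difference of -0.33 did not pass (adjusted p 0.159).

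Gldc encodes the decarboxylase of the glycine cleavage system, which releases a carbon unit from glycine. It read 4681.7 and 5246.6 under vehicle and 7936.1 and 6776 under GW4064 in Fxr+/+ and 1891.6 under vehicle and 4141.3 and 4112.5 under GW4064 in Fxr-/-, and was 2.15-fold lower (log2 difference -1.10, SE 0.151, adjusted p 0.00235). All Fxr-/- arrays were below all Fxr+/+ arrays, and the second probe gave a log2 difference of -1.13. Amt, the aminomethyltransferase of the same system, was measured near the background range, at 36.6 to 46.8 over the 7 arrays, with no call (log2 difference -0.05, 95% interval -0.39 to 0.29).

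3 enzymes downstream of S-adenosylmethionine fell, while the enzyme that makes it was not called. Mat1a, the hepatic S-adenosylmethionine synthetase, read 33528.6 to 34955.6 in Fxr+/+ and 32796.8 to 38214.9 in Fxr-/-, near the top of the array's range (log2 difference 0.00, 95% interval -0.34 to 0.34). Gnmt, which disposes of the methyl group by making sarcosine from glycine, read 23216.7 and 25562.5 under vehicle and 28760.9 and 23216.7 under GW4064 in Fxr+/+. In Fxr-/- it read 9942.2 under vehicle and 10981.5 and 9384.1 under GW4064, 2.5-fold lower with no overlap (log2 difference -1.32, SE 0.163, adjusted p 0.00139). The second Gnmt probe gave a log2 difference of -1.42. Sardh, the mitochondrial dehydrogenase that oxidises sarcosine, read 653 and 923 under vehicle and 736 and 704.3 under GW4064 in Fxr+/+ and 380.1 under vehicle and 338 and 346 under GW4064 in Fxr-/-, 2.03-fold lower (log2 difference -1.02, SE 0.172, adjusted p 0.0057). Ahcy, which hydrolyses S-adenosylhomocysteine left after methyl transfer, read 1483.2 and 1617.6 under vehicle and 1571 and 1527.9 under GW4064 in Fxr+/+ and 845.9 under vehicle and 962.6 and 959.1 under GW4064 in Fxr-/-, 1.71-fold lower (log2 difference -0.77, SE 0.142, adjusted p 0.00841). Neither Sardh nor Ahcy overlapped between the genotype labels. Dmgdh, the related dehydrogenase just before Sardh, differed the other way without a call: 705.3 to 872 in Fxr+/+ and 885.6 to 1093.1 in Fxr-/- (log2 difference 0.36, adjusted p 0.16).

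Homocysteine is returned to methionine by remethylation or leaves the cycle by transsulfuration, and none of the listed genes of either route was called. Bhmt, which remethylates homocysteine with betaine, spanned 2190.9 to 2644.4 over all arrays (log2 difference 0.06, 95% interval -0.29 to 0.41). Bhmt2, its paralogue, spanned 5145.1 to 6836.5 (log2 difference -0.13, 95% interval -0.49 to 0.23). Cbs, the first transsulfuration enzyme, read 1247.9 and 1263.2 under vehicle and 1000.5 and 1263.9 under GW4064 in Fxr+/+ and 1571 under vehicle and 1689 and 1556.4 under GW4064 in Fxr-/-. On this main probe the Fxr-/- arrays were all higher, with a log2 difference of 0.42 and an adjusted p of 0.097. A dimmer Cbs probe overlapped slightly between genotypes, at 1032.9 to 1302.9 and 1292.7 to 1594, with a log2 difference of 0.36. Cth, the second transsulfuration enzyme, read 1713.5 and 893.4 under vehicle and 2765.9 and 1637.3 under GW4064 in Fxr+/+ and 1889.3 under vehicle and 2504.3 and 1513.6 under GW4064 in Fxr-/-, so the genotypes overlapped and the interval was wide (log2 difference 0.24, 95% interval -0.50 to 0.97). Mthfd1, the cytosolic enzyme that interconverts folate-bound carbon units, was 1914.9 to 2307.5 in Fxr+/+ and 1640.7 to 1772.4 in Fxr-/-, without overlap or a call (log2 difference -0.27, adjusted p 0.24).

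Of the aromatic amino acid genes only Hpd and Fah were tested, and Fah was lower. Fah, fumarylacetoacetate hydrolase, carries out the last step of tyrosine breakdown. It read 19731.2 and 22493.8 under vehicle and 20076.9 and 19731.2 under GW4064 in Fxr+/+ and 12531.5 under vehicle and 13627.2 and 12714 under GW4064 in Fxr-/-, 1.59-fold lower with no overlap (log2 difference -0.67, SE 0.147, adjusted p 0.0159). The adjusted p for Fah was 0.0577 without the first and 0.0599 without the second Fxr+/+ GW4064 array. Hpd, the dioxygenase earlier in the pathway, read 3976.3 and 7038.5 under vehicle and 4355.5 and 4528.7 under GW4064 in Fxr+/+ and 3881.8 under vehicle and 3337.3 and 2532.9 under GW4064 in Fxr-/-. Its genotypes did not overlap either, but the second Fxr+/+ vehicle array stood above the others and the log2 difference of -0.53 was not called (adjusted p 0.147). Without the first Fxr+/+ vehicle array Hpd was called lower (log2 difference -0.73, adjusted p 0.0403).

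Of the histidine pathway, Hal, Uroc1 and Ftcd were measured, and Uroc1 and Ftcd were lower; Amdhd1, the enzyme between these last, had no probe. Hal, histidine ammonia-lyase, opens the pathway. It read 4091.4 and 5323.9 under vehicle and 6449.1 and 4859.7 under GW4064 in Fxr+/+ and 2949.8 under vehicle and 4846.4 and 6245.2 under GW4064 in Fxr-/-, with overlap and no call (log2 difference -0.34, 95% interval -0.80 to 0.11). Uroc1, urocanase, read 8136 and 11591.9 under vehicle and 9153.2 and 11370.9 under GW4064 in Fxr+/+ and 4465.2 under vehicle and 4536.2 and 5610.2 under GW4064 in Fxr-/-, 2.09-fold lower without overlap (log2 difference -1.07, SE 0.196, adjusted p 0.00814). Ftcd, which hands the formimino group of histidine to folate, read 8174.6 and 9320.8 under vehicle and 9620.1 and 10035 under GW4064 in Fxr+/+ and 5102 under vehicle and 7222.5 and 7722.8 under GW4064 in Fxr-/-, 1.5-fold lower without overlap on its main probe (log2 difference -0.58, SE 0.147, adjusted p 0.0271). Its second probe overlapped between genotypes, at 207.7 to 293.5 and 125.5 to 216.2, with a log2 difference of -0.71. The call of Ftcd was lost without the second Fxr+/+ vehicle array (adjusted p 0.0648), the first or second Fxr+/+ GW4064 array (0.0764 and 0.0957) or the first Fxr-/- GW4064 array (0.0552).

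Of the 5 genes of transamination, proline and ornithine metabolism tested, Got1 and Prodh were lower (40%, against 12.6% of all genes). Got1, the cytosolic aspartate aminotransferase, read 868.4 and 901.9 under vehicle and 564.8 and 526.9 under GW4064 in Fxr+/+ and 461 under vehicle and 345 and 425.5 under GW4064 in Fxr-/-. All Fxr-/- arrays were lower, by 1.63-fold (log2 difference -0.70, SE 0.154, adjusted p 0.0158), although the 2 Fxr+/+ GW4064 arrays lay closer to them than the vehicle arrays did. Without the first or the second of these GW4064 arrays the adjusted p for Got1 was 0.0595 or 0.0528. Prodh, which starts proline oxidation in the mitochondrion, read 869.1 and 1468.2 under vehicle and 1316.3 and 1293.3 under GW4064 in Fxr+/+ and 523.2 under vehicle and 826.7 and 952.9 under GW4064 in Fxr-/-. It was 1.76-fold lower (log2 difference -0.82, SE 0.21, adjusted p 0.0296), but the highest Fxr-/- array passed the lowest Fxr+/+ array. The call of Prodh was lost without either Fxr+/+ GW4064 array (adjusted p 0.0792 and 0.0833) and without either Fxr-/- GW4064 array (0.0683 and 0.0509).

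The other 3 genes of that list were not called. Aldh4a1, which completes proline oxidation to glutamate, spanned 8153 to 9798.2 over all arrays (log2 difference 0.07, 95% interval -0.28 to 0.42). Gpt, the alanine aminotransferase, read 4729.2 and 5610.2 under vehicle and 5653.4 and 5706.8 under GW4064 in Fxr+/+ and 3867.1 under vehicle and 5973.6 and 7461.3 under GW4064 in Fxr-/- (log2 difference -0.09, 95% interval -0.47 to 0.29). Oat, ornithine aminotransferase, read 12384.8 and 14016.7 under vehicle and 8981.7 and 6689 under GW4064 in Fxr+/+ and 10241.5 under vehicle and 8981.7 and 5511.6 under GW4064 in Fxr-/- (log2 difference -0.25, 95% interval -0.77 to 0.26).

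**Figure D2:**
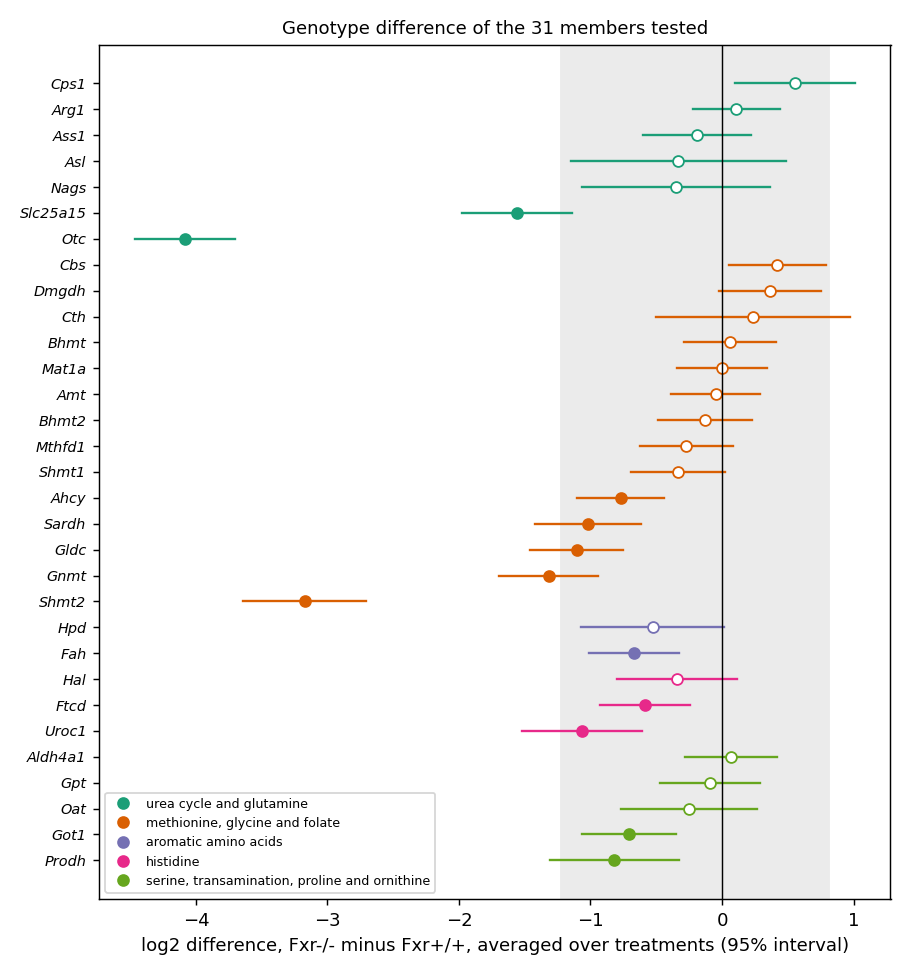
Log2 difference of Fxr-/- minus Fxr+/+ averaged over treatments for the 31 genes tested, by pathway list, with 95% intervals of the limma fit and the called genes marked. The 12 called genes lie between -4.08 for Otc and -0.58 for Ftcd, and no called gene lies above 0.

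Each treatment was also compared alone. These comparisons share no arrays, only the estimate of spread. Under vehicle, where 1 Fxr-/- array stood against 2 Fxr+/+ arrays, 5 genes were lower and 0 higher, against 5% lower and 1.85% higher over all genes. Under GW4064, 8 genes were lower and 0 higher, against 9.14% and 5.47%. The 5 genes called under vehicle (Otc, Shmt2, Slc25a15, Gldc and Gnmt) were all called under GW4064 too. Otc was at least 10.5-fold lower under vehicle and at least 9.44-fold lower under GW4064. The log2 difference of Shmt2 was -3.59 under vehicle (adjusted p 0.00113) and -2.76 under GW4064 (adjusted p 0.000718). For Slc25a15 it was -1.67 and -1.46, and for Gnmt -1.29 and -1.35, so the sizes stayed close. Gldc differed by -1.38 under vehicle and -0.83 under GW4064. Sardh (-1.04), Uroc1 (-1.01) and Ahcy (-0.68) were called under GW4064 alone, which does not show that their genotype difference changed with treatment: the 3 were called under vehicle too with an offset of 100, a filter at the 75th percentile or an intensity trend in the prior, and the difference of differences was called by limma for none of the 31 genes and 0 of all genes, and at an unadjusted p under 0.05 for 0 of the 31 and 604 of all (6.18%). Its largest values were -1.14 for Asl (adjusted p 0.91) and 0.83 for Shmt2 (adjusted p 0.858). The call of Ahcy under GW4064 was lost in all 6 fits with 1 array left out (adjusted p up to 0.201), and those of Gldc (up to 0.176), Sardh (up to 0.112) and Uroc1 (up to 0.202) without any 1 of the 4 GW4064 arrays. Those of Slc25a15 and Gnmt were lost without the first Fxr+/+ GW4064 array (adjusted p 0.0536 and 0.0515). Under vehicle, the call of Slc25a15 was lost without the first Fxr+/+ vehicle array (adjusted p 0.0514), that of Gldc without the second (0.0534) and that of Gnmt without either (0.0595 and 0.0786). With 1 array left out, the count under GW4064 ranged from 2 to 7 lower genes and that under vehicle from 3 to 5.

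The wider network around these genes was read from 97 further genes of transport, related amino acid pathways and the amino acid stress response, of which 73 were tested. Averaged over treatments, 7 were higher, 20 were lower and 46 were not called in Fxr-/-, which is 9.59% higher and 27.4% lower against 9.73% and 12.6% of all genes. Of the 27 called, 22 stayed called with any 1 array left out, and Slc7a2, Got2, Chdh, Agxt and Atf3 did not. Among the 6 fits with 1 array left out, Slc7a2 and Chdh stayed called only without the first Fxr-/- GW4064 array and Got2 only without the second, with adjusted p up to 0.134 for Slc7a2, 0.0894 for Chdh and 0.127 for Got2. Prodh2, hydroxyproline dehydrogenase, read 4964.9 and 5822.9 under vehicle and 5628.7 and 5962.4 under GW4064 in Fxr+/+ and 456 under vehicle and 523.7 and 284.3 under GW4064 in Fxr-/-. Its 12.8-fold fall (log2 difference -3.68, SE 0.227, adjusted p 7.50e-05) stands beside 1.76-fold for Prodh. Among genes that meet the methionine and glycine pathways, 8 of 21 were lower and 1 higher (38.1% and 4.76%, against 12.6% and 9.73% of all genes). Gamt, which uses S-adenosylmethionine to make creatine, read 3605.1 and 5102 under vehicle and 3580.7 and 3850.1 under GW4064 in Fxr+/+. In Fxr-/- it read 1087.8 under vehicle and 1269.5 and 795.7 under GW4064 (log2 difference -1.92, SE 0.22, adjusted p 0.00103). Glyctk, glycerate kinase, read 3483 and 3817.5 under vehicle and 3406 and 4634.1 under GW4064 in Fxr+/+ and 545.3 under vehicle and 1496.3 and 2175.2 under GW4064 in Fxr-/- (log2 difference -1.92, SE 0.201, adjusted p 0.000678); all its Fxr-/- arrays were lower, and the vehicle array was the lowest. Agxt (log2 difference -0.94) and Agxt2 (-1.47), mitochondrial or peroxisomal aminotransferases of glyoxylate metabolism, and Chdh (-0.66), choline dehydrogenase, also fell. So did Cdo1 (-1.13), Ethe1 (-1.50) and Tst (-0.95), which handle the sulfur of cysteine. Without the second Fxr+/+ GW4064 array the adjusted p of Agxt was 0.0579.

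The share of higher genes was near that of all genes, and among the 7 were the enzymes Psat1 and Asns. Psat1, the aminotransferase of serine synthesis, read 62.9 and 41.2 under vehicle and 51.7 and 67.5 under GW4064 in Fxr+/+ and 170.7 under vehicle and 158.8 and 214.6 under GW4064 in Fxr-/- (log2 difference 1.45, SE 0.197, adjusted p 0.00233). Asns, asparagine synthetase, read 203.3 and 113.2 under vehicle and 91.5 and 65.6 under GW4064 in Fxr+/+ and 264.1 under vehicle and 242.3 and 261.6 under GW4064 in Fxr-/- (log2 difference 1.13, SE 0.225, adjusted p 0.0115). Both genes are known ATF4 targets and neither overlapped between genotypes. Of the 10 genes listed for ATF4 and amino acid stress, which did not hold Psat1 or Asns, 1 was higher and 1 lower. Those shares, 10% and 10%, were near the 9.73% and 12.6% of all genes, and 8 were not called. The higher one was Vldlr, a lipoprotein receptor, at 77.7 to 129.1 in Fxr+/+ and 743.3 to 987.3 in Fxr-/- (log2 difference 3.04, SE 0.198, adjusted p 9.44e-05). The lower one was Atf3, a stress-induced transcription factor whose 3 Fxr-/- arrays and 2 of 4 Fxr+/+ arrays (5.3 and 19.5) were within background. Atf3 passed the filter through 2 Fxr+/+ arrays alone, so that filter favours a lower call (at least 1.14-fold). It was left untested in 2 of the 6 fits with 1 array left out and was not called without the first or the second Fxr-/- GW4064 array (adjusted p up to 0.0946).

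Among 15 transport and ammonia genes, 3 were higher and 5 lower (20% and 33.3%, against 9.73% and 12.6% of all genes). The higher ones were Asns, the neutral amino acid transporter Slc38a4 (log2 difference 0.98) and the mitochondrial aspartate-glutamate carrier Slc25a12 (0.81). The lower ones were the glutamine transporter Slc38a3 (-1.31), the neutral amino acid transporter Slc7a8 (-0.90), the channel Aqp9 (-0.82), which passes glycerol and urea, the mitochondrial aspartate aminotransferase Got2 (-0.61) and the cationic amino acid transporter Slc7a2 (-0.59). Among 22 genes of branched-chain, lysine and other breakdown, 2 were higher and 5 lower (9.09% and 22.7%, against 9.73% and 12.6% of all genes). Pcca, a subunit of propionyl-CoA carboxylase (1.03), and Ddo, D-aspartate oxidase (1.18), were the higher ones. Besides Prodh2, the lower ones were Bcat2, a branched-chain aminotransferase that fell into background (at least 3.53-fold), and Aass (-0.85), Aadat (-1.35) and Gcdh (-0.92) of lysine breakdown. In the aromatic and histidine list, 1 of 5 was lower (20%, against 12.6% of all genes). It was Il4i1, an amino acid oxidase of immune cells that was dim and at least 1.53-fold lower. Its Fxr-/- signals were 8.6 under vehicle and 34.7 and 35.1 under GW4064, all within background. The part of immune cells was not tested. Gstz1, the isomerase before Fah, was not called (log2 difference -0.39, adjusted p 0.105).

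**Figure D3:**
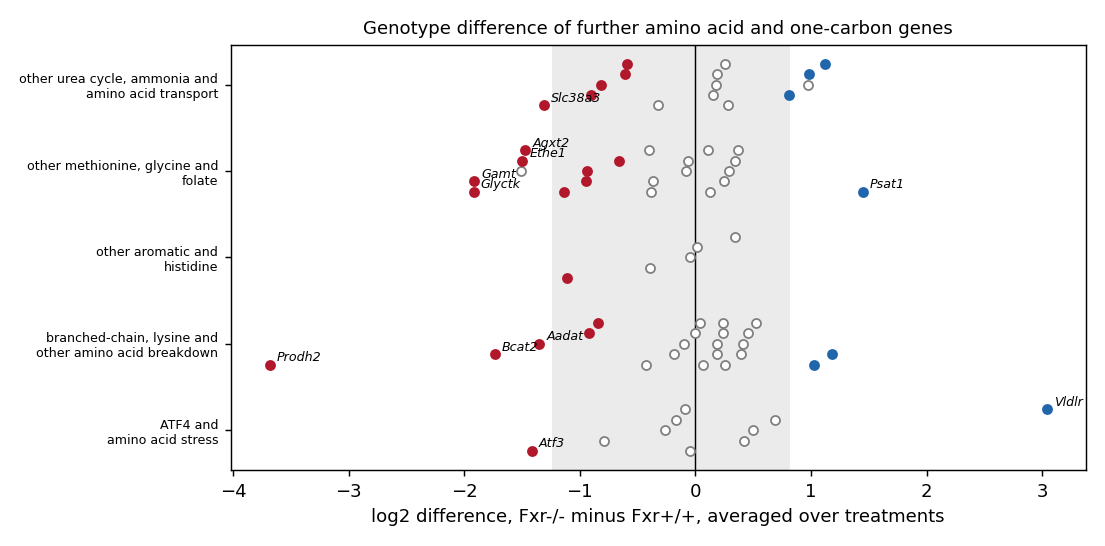
Log2 difference of Fxr-/- minus Fxr+/+ averaged over treatments for the 73 tested genes of the wider lists, each point 1 gene. Filled points were called (blue higher, red lower), open points were not, and the grey band spans the 5th to 95th percentile of all genes. The 7 higher genes run up to 3.04 for Vldlr and the 20 lower genes down to -3.68 for Prodh2.

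The agonist comparison asks which of these genes move under an FXR agonist, in livers of each genotype label. GW4064 against vehicle gave no call among the 31 genes in Fxr+/+ (0.0205% of all genes called, 2 of 9766), in Fxr-/- (0.0717%, 7 genes) or averaged over the genotype labels (0.0922%, 9 genes), and none of the 73 wider genes was called. At an unadjusted p under 0.05 there were 3 of the 31 genes in Fxr+/+ (494 of all genes, 5.06%), 6 in Fxr-/- (955, 9.78%) and 7 averaged over labels (936, 9.58%). The median log2 difference of the 31 genes was 0.06 in Fxr+/+ and 0.04 in Fxr-/-. The values that follow are therefore measurements without a call.

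Gldc had the largest value in Fxr-/- and averaged over labels. From the signals given above, it was higher on both GW4064 arrays than on any vehicle array under each label, by a log2 difference of 0.56 in Fxr+/+ (SE 0.191, unadjusted p 0.0197, adjusted p 0.892) and 1.12 in Fxr-/- (SE 0.234, unadjusted p 0.00163, adjusted p 0.177). Averaged over labels it was 0.84 (SE 0.151, adjusted p 0.138), and the difference between labels, 0.56, was not called (adjusted p 0.888). Its 95% interval averaged over labels lay above 0, but the adjustment over 9766 genes left it uncalled.

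Oat and Got1 were the genes whose GW4064 arrays lay below every vehicle array under both labels. Oat had a log2 difference of -0.76 in Fxr+/+ (unadjusted p 0.0271, adjusted p 0.968) and -0.54 in Fxr-/- (adjusted p 0.721). Oat is a gene of the pericentral liver cells, and 9 of the 11 other pericentral markers tested were below 0 in each label (median log2 difference -0.36 in Fxr+/+ and -0.40 in Fxr-/-), whose part was not tested. Got1 differed by -0.68 in Fxr+/+ (unadjusted p 0.0087, adjusted p 0.778) and by -0.26 in Fxr-/-. Its vehicle signals of 868.4 and 901.9 in Fxr+/+ stood clear of 564.8 and 526.9 under GW4064. Ftcd and Gpt were, beside Gldc, the genes above every vehicle array under both labels. So 5 of 31 genes kept the groups apart in the same direction in both, a share near the 14.5% of all genes.

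Other values in Fxr-/- rest on a single vehicle array. There Hal (0.90), Gpt (0.79), Prodh (0.74), Shmt2 (0.74), Ass1 (0.68) and Ftcd (0.55) had positive log2 differences with adjusted p from 0.351 to 0.525. The second Shmt2 probe went the other way there, from 56.4 to 45.2 and 23.3 (log2 difference -0.56). With 1 array against 2, groups that do not overlap are common: 77.4% of the 31 genes and 68.1% of all genes. All 8 macrophage and all 11 endothelial markers tested were below 0 in the same comparison (medians -0.42 and -0.67), and their part was not tested. In Fxr+/+, Cth (0.77, adjusted p 1) and Asl (0.59, adjusted p 1) had the largest positive values, with vehicle and GW4064 arrays that overlapped in both genes. Cps1 differed by 0.11 in Fxr+/+ (95% interval -0.46 to 0.69) and Arg1 by -0.02 (95% interval -0.43 to 0.40). For Otc the Fxr+/+ difference was -0.15 (95% interval -0.63 to 0.33), and in Fxr-/- no fold is given because all arrays were within background.

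**Figure D4:**
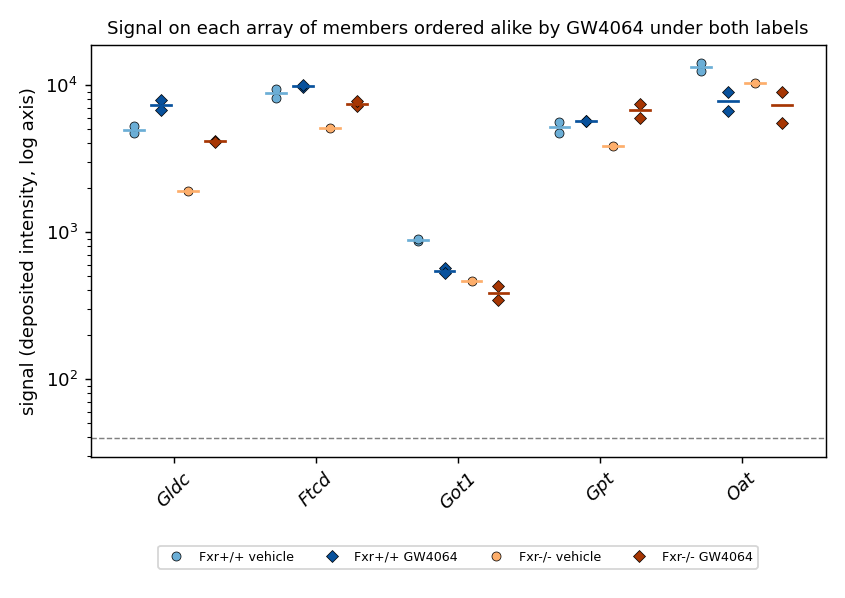
Signal (log axis) under vehicle and GW4064 for the 5 genes whose vehicle and GW4064 arrays kept apart in the same direction under both labels, with each point 1 array, a bar at each group's mean and a dashed line at the background range of 39.5. Gldc points are higher and Oat points lower under GW4064 in both labels, with no call for either gene.

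**Figure D5:**
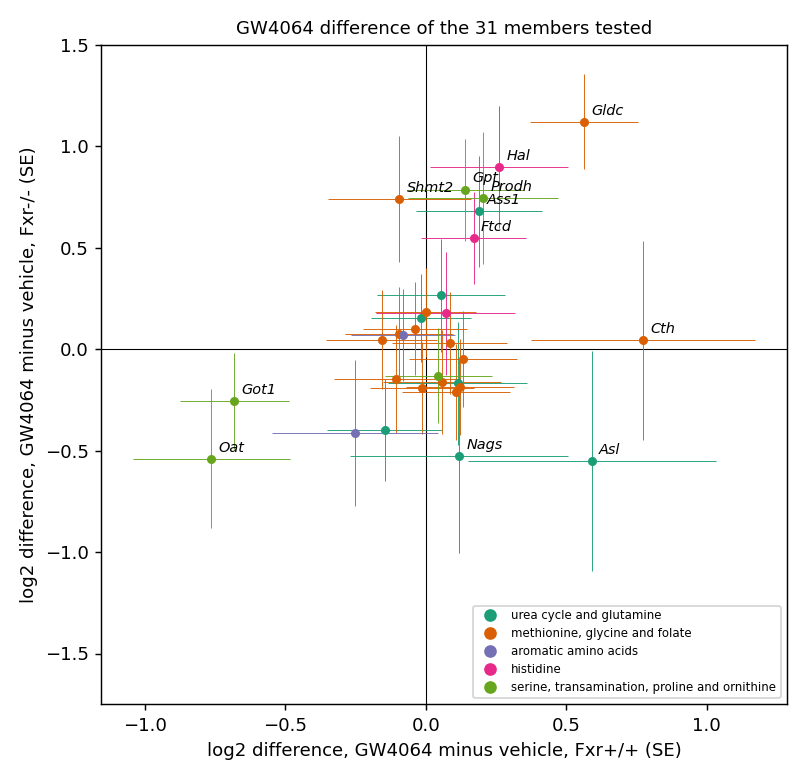
Log2 difference of GW4064 minus vehicle in Fxr+/+ (horizontal) and in Fxr-/- (vertical) for the 31 genes tested, with bars of 1 SE and colours by list. Gldc lies at 0.56 and 1.12 and Oat at -0.76 and -0.54, while Asl lies at 0.59 and -0.55 with wide bars.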

How the data were processed

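RNA from 8 pooled liver samples was labelled as biotin cRNA and hybridised to Illumina arrays, per the labels' protocols; 7 arrays were used. The values are intensities that the authors deposited already normalised: between 31.5% and 31.6% of each column lay below 0, and the sorted columns differed by at most 0.5, so background had been subtracted and quantile normalisation applied. The software used for this is not given in any source used here. Detection p-values were not used. Of 25697 probes, 23978 had 1 gene symbol in the platform annotation and 1719 had none.

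Negative signals were set to 0 and values taken as log2(signal + 16). A probe was kept when above its array's median on at least 2 arrays, which left 14041 probes and 9766 genes, each read by its brightest kept probe. A limma fit (version 3.58.1, R 4.3.3) over the 4 groups gave 7 comparisons, two-sided, with Benjamini-Hochberg adjustment over 9766 genes and a threshold of 0.05. It had 3 residual degrees of freedom and a prior of 4.55. Nothing says how pools were assigned to arrays, so p-values measure the spread between pools, and the number of arrays limits the precision. Signals below 39.5 (the lowest value deposited, with its sign removed) were taken as background, and a fold against a group within it was computed with signals raised to 39.5 and written "at least".

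All 35 genes are named; every array is given for those called and, in each list, for up to 3 with the largest difference in 3 of the comparisons. Wider genes were named when called or among the 2 with the smallest p in their list. The genes and lists were chosen with earlier results of these data known. Promoters came from RefSeq tables of GRCm38.p6 and were found for 27 of the 35 genes. Alternatives covered normalisation, offset, filter, probe choice, model, prior, replicate number and leaving out arrays.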

Additional observations from a re-analysis of the deposited data

How the results depend on the processing

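Over 16 alternative settings no difference of a called gene turned its direction. Averaged over treatments, the count of lower genes (12) was 8 to 13 with 1 array left out (8 without either Fxr+/+ GW4064 array, 13 without the first Fxr+/+ vehicle array, which added Hpd) and 10 to 13 otherwise, and 7 of the 12 calls held in every setting (Otc, Slc25a15, Shmt2, Gldc, Gnmt, Ahcy and Sardh). Uroc1 was lost without a filter on dim probes (adjusted p 0.0753). The count of higher genes (0) was 2 with an offset of 100 (Cps1 and Cbs) and 1, Cps1, with a filter at the 75th percentile or an intensity trend in the prior. Under vehicle, the 5 lower genes became 11 with an offset of 100 or the filter at the 75th percentile, 12 with the trend, 3 with only the arrays compared, and 3 to 5 with 1 array left out; without the second Fxr+/+ vehicle array there were 3. Under GW4064, the 8 lower genes became 5 with an offset of 1, 3 without a filter, and 2 to 7 with 1 array left out; 2 remained without the first Fxr+/+ GW4064 array and 4 without the second one or either Fxr-/- GW4064 array. There 1 gene, Cbs, was higher with an offset of 100. For GW4064 averaged over labels, 1 gene, Gldc, was called higher with an offset of 100 (adjusted p 0.0271) or with the trend (0.0229). The 20 lower genes of the wider lists became 11 without a filter, and the 1228 lower genes of the whole array 675. The log2 difference of Otc runs with the offset because its Fxr-/- signals are within background. The Fxr-/- vehicle array could not be left out, so each value from it rests on 1 pool.

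Arrays of different groups share replicate numbers 1 and 2, but the labels do not say that a number marks a shared batch. Over all genes, the difference of replicate 1 from 2 correlated between groups with r of 0.242, 0.375 and 0.233, a hint from the data and not the design. Over the members tested r was higher, at 0.369, 0.651 and 0.304. The Fxr-/- vehicle array used carries replicate number 1. With a replicate block, averaged over treatments, 13 genes were lower, the added one being Asl (log2 difference -0.55, adjusted p 0.0439; under GW4064 -0.90, adjusted p 0.0232), and 1 was higher, Cps1 (0.46, adjusted p 0.0442).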

Other observations

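Asl and Cth differed between arrays of the same group. In each of the 3 groups with a pair of arrays, Asl was higher on replicate 1, by 0.92, 0.58 and 1.15 on the log2 scale in Fxr+/+ vehicle, Fxr+/+ GW4064 and Fxr-/- GW4064. Cth was higher on replicate 1 by 0.93, 0.75 and 0.72 in the same groups.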
